A study of Rattus norvegicus with 16 samples.

Results

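Genes of the cardiac extracellular matrix and of its remodelling in fibrosis are described here in hearts of rats made diabetic with streptozotocin. The set holds 10 of the 23918 genes in the count files, taken from a list of Ensembl identifiers. They are the fibrillar collagen genes Col1a1 (ENSRNOG00000003897), Col1a2 (ENSRNOG00000011292) and Col3a1 (ENSRNOG00000003357), the adhesive glycoprotein gene Fn1 (ENSRNOG00000014288), and the matricellular genes Ctgf (ENSRNOG00000015036, named Ccn2 in current nomenclature), Postn (ENSRNOG00000012660) and Sparc (ENSRNOG00000012840). The growth factor gene Tgfb1 (ENSRNOG00000020652), the protease gene Mmp2 (ENSRNOG00000016695) and the protease inhibitor gene Timp1 (ENSRNOG00000010208) complete the set. All 10 passed the filter on low counts.

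RNA was measured by sequencing in the hearts of 16 rats (Wistar, male, adult, 240 to 260 g). The D55 group (n = 6) and the D100 group (n = 6) had received streptozotocin, a toxin of the insulin-producing beta cells, once through the tail vein under halothane, at 55 and 100 mg/kg respectively. The Control group (n = 4) is labelled as having received no agent, and the labels name no vehicle injection for it. A glucose level over 13 mmol/L was verified 24 hours later, and hearts emptied of blood were taken after 4 days of follow-up, so the groups describe the first days after the toxin. The study relates the severity of diabetes to cardiac gene expression, and the doses were compared with Control and with each other. RNA came from whole hearts, so fewer fibroblasts and less matrix RNA per fibroblast cannot be told apart in these values. The files carry identifiers without gene names, so markers of heart muscle, fibroblasts and other cell types were not analysed here and the tissue label was not checked.

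Fibroblasts make most of the fibrillar collagen of the heart. Transforming growth factor beta is secreted in a latent form, and once released it signals through receptor kinases and SMAD transcription factors to raise collagen, fibronectin, connective tissue growth factor and TIMP genes. Connective tissue growth factor, the product of Ctgf, is a secreted matricellular protein that is made by cardiomyocytes as well as fibroblasts and responds also to mechanical load and to the YAP and TEAD pathway. Turnover of the matrix depends on metalloproteinases and on their tissue inhibitors.

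The promoters of 3 members that differed in behaviour are shown for reference: Ctgf, which was higher in every D100 library than in any other, Col1a2, which was lower in every D100 library than in any other, and Postn, which passed no test. The windows reach from 250 bases before to 50 after a RefSeq start (GRCr8) and run 5′ to 3′ along the gene. For Postn, and for Timp1 named below, the window lies within the RefSeq gene. The start used for these 2 members is thus not the outermost start of the gene (Postn: chr2:140677774-140709304). Capitals mark 3 motifs, each searched on both strands. The core bound by TEAD factors was taken as GGAATG. A core bound by SMAD factors was taken as CAGAC, which reads in reverse complement where it lies on the opposite strand. The TATA box was taken as TATAAA. The windows, in the order shown, lie at chr1:22624565-22624864 (minus strand), chr4:33518307-33518606 (plus strand) and chr2:140677811-140678110 (plus strand).
Ccn2 (Ctgf): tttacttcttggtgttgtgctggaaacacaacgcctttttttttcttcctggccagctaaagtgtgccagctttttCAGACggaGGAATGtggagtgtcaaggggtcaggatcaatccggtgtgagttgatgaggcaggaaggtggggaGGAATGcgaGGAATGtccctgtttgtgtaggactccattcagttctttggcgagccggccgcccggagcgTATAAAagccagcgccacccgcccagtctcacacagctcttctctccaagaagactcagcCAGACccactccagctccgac
Col1a2: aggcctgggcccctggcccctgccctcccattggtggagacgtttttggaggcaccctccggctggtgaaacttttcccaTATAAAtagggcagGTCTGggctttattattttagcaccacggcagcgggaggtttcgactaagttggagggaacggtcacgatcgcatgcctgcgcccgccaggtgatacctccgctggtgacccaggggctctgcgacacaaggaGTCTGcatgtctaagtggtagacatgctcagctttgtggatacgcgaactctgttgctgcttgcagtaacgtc
Postn: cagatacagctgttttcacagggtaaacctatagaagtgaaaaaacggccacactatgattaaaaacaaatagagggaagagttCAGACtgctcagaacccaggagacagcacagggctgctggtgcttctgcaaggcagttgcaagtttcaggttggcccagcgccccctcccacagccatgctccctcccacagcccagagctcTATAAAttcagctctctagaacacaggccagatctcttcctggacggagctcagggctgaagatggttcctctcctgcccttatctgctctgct

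The Ctgf window held the TEAD core at 3 places, beginning 166, 101 and 92 bases before the start, the SMAD core beginning 174 bases before and 29 bases after it, and a TATA box beginning 31 bases before it. The Col1a2 window held no TEAD core, the SMAD core on the opposite strand at 156 and 23 bases before the start, and a TATA box at 170 bases before it. The Postn window held no TEAD core, a SMAD core at 166 bases and a TATA box at 44 bases before the start. Of 33469 promoter windows of this length, 14.2% held the TEAD core, 50.1% the SMAD core and 14.2% the TATA box, on either strand. Of 6 members with a window in the table, 3 held the TEAD core (Ctgf, Sparc and Timp1) and 4 the SMAD core (Ctgf, Col1a2, Postn and Sparc). These are matches of letters, not measured binding.

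Libraries differed in depth and composition, which bears on every comparison below. Totals were 26.2 to 48.3 M estimated counts in Control, 18.5 to 48.4 M in D55 and 4.685 to 25.6 M in D100, where replicate F was the shallowest. D100 totals were below those of Control (mean difference -14.3 M, exact two-sided permutation p = 0.00952, 0.0286 adjusted over 3 comparisons). Between D100 and D55 the mean difference was -14.2 M, which did not pass after adjustment (exact two-sided permutation p = 0.0390, 0.0584 adjusted). The 10 most abundant genes of the series took 43.3% to 59.4% of counts in Control, 30.1% to 54.7% in D55 and 53.4% to 69.0% in D100. The lowest shares, 30.1% and 30.4%, were those of D55 replicates B and E, which stood apart from the other 4 D55 libraries (42.8% to 54.7%). Between D100 and D55 this share differed by 17.2 percentage points, higher in D100 (exact two-sided permutation p = 0.00649, 0.0195 adjusted over 3 comparisons). Without D55 B and E the difference was 10.6 points and no longer passed (exact two-sided permutation p = 0.0286, 0.0571 adjusted). With all libraries the D100 share was 11.1 points above that of Control, which did not pass after adjustment (exact two-sided permutation p = 0.0381, 0.0571 adjusted). Levels below are counts-per-million (CPM) on totals scaled by the trimmed mean of M values (TMM), a correction for composition. CPM is not corrected for gene length, so levels are compared within a gene. A gene was called changed, or passed, where its edgeR p adjusted over the 14175 genes tested was under 0.05.

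The ligand gene Tgfb1 did not pass the test in either dose group against Control. It stood at 6.83, 6.16, 3.72 and 6.18 CPM in the Control libraries. In D55 the lowest, median and highest values were 4.78, 6.69 and 16.5 CPM, and in D100 they were 1.78, 3.22 and 8.67 CPM. The 2 high D55 values, 15.98 and 16.53 CPM, belonged to B and E, while the other 4 D55 libraries (4.78 to 7.98 CPM) overlapped Control. The highest D100 value belonged to replicate F, where it rested on 42 counts. The log2 fold change against Control was 0.70 (SE 0.44) in D55 and -0.55 (SE 0.44) in D100, with edgeR adjusted p-values of 0.575 and 0.443.

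Ctgf, which encodes connective tissue growth factor, was the 1 member called in D100 against Control in the analysis reported. Other members were called lower in some alternative fits, given below. Its Control libraries held 54.2, 40.7, 46.5 and 58.2 CPM. D55 libraries had a lowest value of 35.1, a median of 54.5 and a highest of 69.4 CPM, spread around the Control values. D100 libraries held 147.9, 209.4, 137.5, 113.9, 108.1 and 134.6 CPM, so the lowest D100 library lay above the highest of the other 10. The Control mean was 49.9 CPM ± 7.79 (SD, n = 4). The D55 mean was 51.9 CPM ± 13.4 (SD, n = 6), and that of D100 was 141.9 CPM ± 36.3 (SD, n = 6).

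Against Control, Ctgf was 2.84-fold higher in D100 (log2 fold change 1.51, SE 0.22, 95% interval 1.03 to 1.98, edgeR adjusted p = 0.0013). It ranked 45 by p among 14175 genes tested, of which 4.38% were called and 1.92% were called as higher. Against D55 it was 2.73-fold higher (log2 fold change 1.45, SE 0.19, interval 1.04 to 1.86, edgeR adjusted p = 0.00218), rank 7 by p. D55 and Control did not differ detectably in Ctgf (log2 fold change 0.06, interval -0.39 to 0.51, edgeR adjusted p = 0.928). For 176 of the 14175 genes (1.24%) every D100 library lay above all of the other 10, and Ctgf was the member among them. The comparisons of D100 with Control and with D55 share the D100 libraries and are not independent.

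The rise of Ctgf against Control was called under each of 26 alternative settings (log2 fold change 1.01 to 1.59, adjusted p 3.41e-09 to 0.00914). On unscaled totals its difference from D55 was 0.80 in place of 1.45 (edgeR adjusted p = 0.00828), with the median of all genes at -0.65 in place of -0.03, and 1 D100 library (D, 87.6 CPM) lay below 1 D55 library (E, 90.1 CPM). Without D55 B and E the difference from D55 was 1.39 (SE 0.20, edgeR adjusted p = 0.00709). With composition (the percent of counts in the 10 most abundant genes) as a covariate it was 1.13 (SE 0.23, edgeR adjusted p = 0.0466), and Ctgf was 1 of 41 genes called (0.289% of those tested). With the replicate letters shared by D55 and D100 as a block, the difference was 1.45 (SE 0.23). It did not pass there (edgeR adjusted p = 0.0530), and neither did any other gene.

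**Figure D1:**
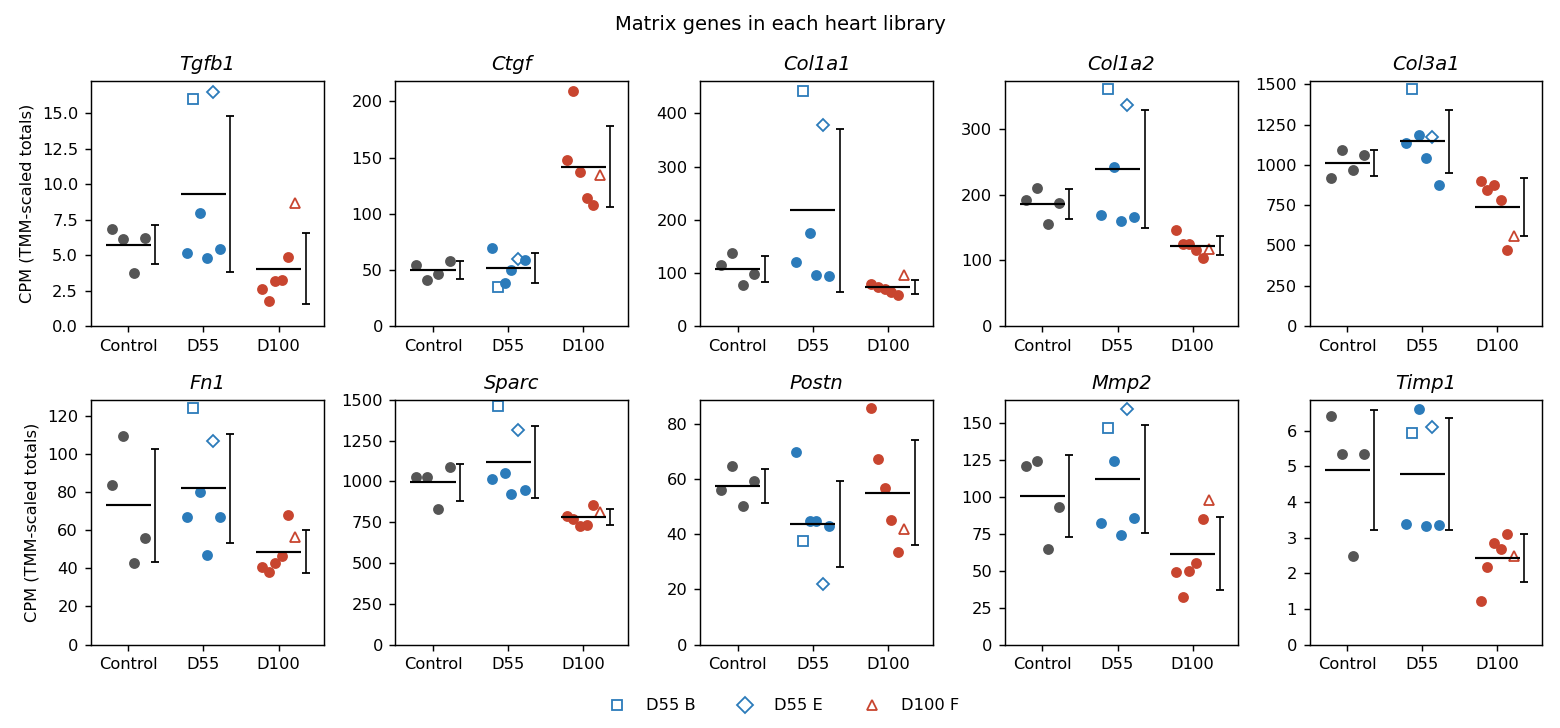
CPM of each gene (y axis, TMM-scaled totals, from 0) in Control (n = 4), D55 (n = 6) and D100 (n = 6); points are libraries, horizontal lines group means and vertical bars SD, with D55 B, D55 E and D100 F as open symbols. The D100 libraries of Ctgf sit between 108.1 and 209.4 CPM, above the other groups, while D55 B and E are the highest libraries for Col1a1, Col1a2, Sparc, Tgfb1 and Mmp2.

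The genes of type I collagen, the main load-bearing fibre of the heart, were most variable in D55. Col1a1, the alpha 1 chain, held 115.2, 136.5, 77.8 and 98.7 CPM in Control. D55 B and E held 441.9 and 378.0 CPM, above all other libraries, and the other 4 D55 libraries held 93.2 to 175.2 CPM. In D100 the lowest, median and highest values were 58.5, 71.0 and 95.8 CPM, so 4 of 6 libraries lay below every Control library. The coefficient of variation of Col1a1 was 70.5% in D55, 23.3% in Control and 17.9% in D100, and it was 31.2% in D55 without B and E.

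Col1a2, the alpha 2 chain, stood at 191.3, 210.5, 155.6 and 188.0 CPM in Control, at 159.7 to 360.4 CPM (median 205.9) in D55 and at 103.9 to 146.6 CPM (median 121.0) in D100. Every D100 library lay below every Control and D55 library. For 187 of 14175 genes (1.32%) all D100 libraries lay below the other 10. The log2 fold change against Control was -0.61 (SE 0.22, 95% interval -1.08 to -0.14), which did not pass (edgeR adjusted p = 0.128). The estimated counts of Col1a2 were not whole in any of the 14 libraries where this could be judged, so reads were divided between it and other targets and it is a less certain level than Col1a1.

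Col3a1, the chain of type III collagen, which forms thinner and more compliant fibres, held 920.2, 1090, 970.7 and 1063 CPM in Control. D55 libraries had a lowest value of 877.9, a median of 1154 and a highest of 1470 CPM, and D100 libraries 473.8, 812.0 and 901.6 CPM. D100 and Control did not overlap, yet the difference of -0.45 on the log2 scale (SE 0.19) did not pass (edgeR adjusted p = 0.170). Groups that do not overlap were seen for 7.57% of all tested genes in this comparison. D100 E and F had the lowest Col3a1 values, 473.8 and 559.4 CPM, apart from the other D100 libraries (782.3 to 901.6 CPM).

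The ratio of Col1a1 to Col3a1 counts within a library, which no scaling can move, was 0.301 in D55 B and 0.322 in D55 E. It lay between 0.0793 and 0.171 in the other 14 libraries. The highest of those was D100 F (0.171), and the Control libraries had 0.125, 0.125, 0.0801 and 0.0929. Col1a1 and Col3a1 transcripts were thus in other proportions in D55 B and E than in their own group, whose other libraries held 0.0928 to 0.148. The ratio of Col1a1 to Col1a2 counts was also highest in D55 B and E, at 1.23 and 1.12, against 0.500 to 0.818 in the other 14 libraries.

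Fn1 encodes fibronectin, on which collagen fibres assemble. Its Control libraries held 83.7, 109.2, 42.8 and 56.04 CPM. Values ran from 47.1 to 124.1 CPM (median 73.5) in D55 and from 38.2 to 68.1 CPM (median 44.6) in D100. The groups overlapped, and the log2 fold change of D100 against Control was -0.58 (SE 0.28, edgeR adjusted p = 0.225).

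Sparc encodes a collagen-binding matricellular protein that acts in the processing of procollagen. Control libraries held 1028, 1029, 829.9 and 1091 CPM, and D55 libraries 922.8 to 1465 CPM with a median of 1032. D100 libraries lay close together at 724.1 to 854.1 CPM (median 780.9), below all D55 libraries and, in 5 of 6, below all Control libraries. The difference from Control was -0.35 on the log2 scale (SE 0.15, edgeR adjusted p = 0.182).

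Postn encodes periostin, a matricellular protein made by activated fibroblasts. It held 55.9, 64.8, 50.2 and 59.2 CPM in Control, 21.9 to 69.8 CPM (median 44.0) in D55 and 33.7 to 85.6 CPM (median 51.0) in D100. D55 E, among the highest libraries for Col1a1, was the lowest for Postn (21.9 CPM). Neither dose differed from Control in Postn by edgeR (log2 fold change -0.40, SE 0.27, adjusted p = 0.597 in D55, and -0.06, SE 0.27, adjusted p = 0.897 in D100). Against D55 its D100 value was 0.34, and -0.30 on unscaled totals.

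Mmp2 encodes gelatinase A, which cleaves denatured and type IV collagen. It stood at 120.8, 124.3, 64.5 and 92.8 CPM in Control, 74.2 to 159.5 CPM (median 104.8) in D55 and 32.1 to 98.1 CPM (median 52.3) in D100. In D100, 4 of 6 libraries lay below all Control libraries, and the log2 fold change was -0.71 (SE 0.30, edgeR adjusted p = 0.176). The 2 highest D100 values, 98.1 and 84.9 CPM, were those of F and E, which also had the lowest D100 shares of the 10 most abundant genes.

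Timp1, the inhibitor of metalloproteinases that is often raised in fibrotic hearts, rested on 12 to 432 counts a library. Control libraries held 6.42, 5.36, 2.48 and 5.35 CPM. D55 libraries ranged from 3.33 to 6.61 CPM (median 4.66) and D100 libraries from 1.22 to 3.11 CPM (median 2.59), with the lowest level in replicate A and the fewest counts, 12, in replicate F. Of the 10, Timp1 had the lowest log2 fold change in D100 against Control, 2.02-fold lower (log2 fold change -1.01, SE 0.31, interval -1.68 to -0.35), and it did not pass (edgeR adjusted p = 0.0789). The ratio of Mmp2 to Timp1 counts was 17.4 to 26.0 in Control, 18.8 to 26.1 in D55 and 14.8 to 40.2 in D100, so the groups overlapped.

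Across the set, D100 against Control gave 1 of 10 members called, Ctgf, where 4.38% of all tested genes were called. The other 9 had fitted values below Control, 5 of them with an unadjusted p under 0.05 (11.5% of all tested genes were lower at that level). The median log2 fold change of the 10 was -0.55 against -0.03 over all genes tested. In a fit that left out D55 B and E, 3 members were called, Ctgf higher and Col1a2 and Timp1 lower (edgeR adjusted p = 0.0167 and 0.0485), where 10.8% of genes were called. Without scaling factors the calls were Ctgf higher and Col3a1 and Timp1 lower, where 1172 of 14175 genes were called, 1082 of them lower. The medians were then -0.998 for the members and -0.48 for all genes. Of all calls in this comparison 43.8% were higher in D100, and 7.68% on unscaled totals.

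D55 against Control gave 0 of 10 members called in edgeR, where 0.0635% of all tested genes were called. DESeq2 and limma-voom with sample quality weights also called 0, and 1 member had an unadjusted p under 0.05 in edgeR, as had 8.97% of all tested genes. This was Col1a1, with a log2 fold change of 1.02 (SE 0.40, 95% interval 0.18 to 1.87, edgeR adjusted p = 0.554). It was 0.18 (SE 0.22) without D55 B and E. The median over the members was 0.17 against 0.03 over all genes, and -0.02 against 0.00 without B and E.

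**Figure D2:**
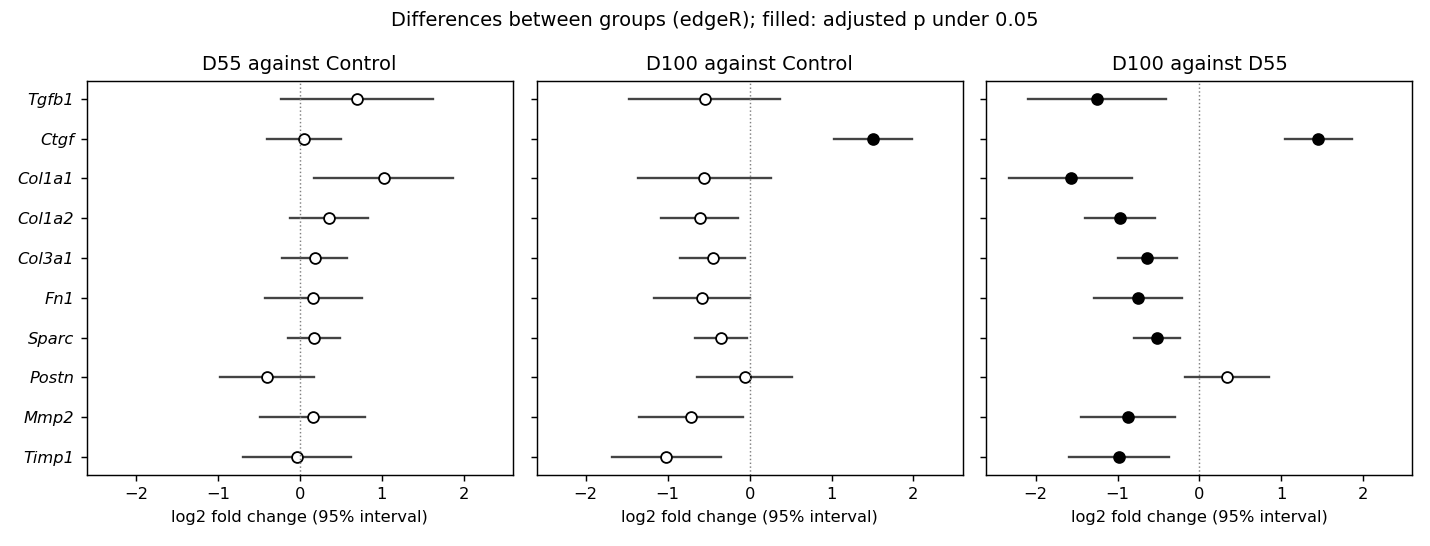
Log2 fold change (x axis, points) with its 95% interval (lines) for each gene in each of the 3 comparisons, from edgeR over 16 libraries; filled points have an adjusted p under 0.05. Ctgf is the filled point against Control (1.51), no point is filled in D55 against Control, and 9 are filled in D100 against D55.

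D100 against D55 gave 9 of 10 members called, 1 higher (Ctgf) and 8 lower in D100. In the same comparison 35.6% of all tested genes were called, 13.7% as higher and 21.8% as lower. Of these calls 38.6% were higher in D100. On unscaled totals the same 9 members were called in the same directions. There 7016 of 14175 genes were called, 6875 of them lower and 2.01% higher in D100. The lower members were Col1a1 (log2 fold change -1.57, SE 0.36), Tgfb1 (-1.25, SE 0.40), Timp1 (-0.98, SE 0.29), Col1a2 (-0.97, SE 0.20), Mmp2 (-0.87, SE 0.27), Fn1 (-0.75, SE 0.25), Col3a1 (-0.63, SE 0.17) and Sparc (-0.52, SE 0.13), with edgeR adjusted p-values of 0.0138 to 0.0347. Postn did not pass (0.34, SE 0.24, edgeR adjusted p = 0.268). The groups did not overlap for Ctgf, Col1a2, Timp1 and Sparc, 4 of 10 members, against 4.2% of all tested genes.

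Leaving out D55 B and E removed 8 of the 9 calls. Then 1 of 10 members was called, Ctgf, and 0.888% of all tested genes. The 8 lower members all kept a negative fold change, between -0.33 (Sparc) and -0.77 (Timp1), with edgeR adjusted p-values of 0.0614 (Col1a2) to 0.305 (Tgfb1). Col1a1 went from -1.57 to -0.73 (SE 0.20, edgeR adjusted p = 0.0885) and Tgfb1 from -1.25 to -0.58 (SE 0.34). Leaving out D55 B alone left 4 members called (Col1a1, Col1a2, Sparc and Ctgf), and 1172 of 13996 genes. Leaving out D55 E, D100 A or D100 B alone left these members and Col3a1. Over all genes 1403 of 14001, 1965 of 14170 and 1721 of 14178 were then called. With the composition covariate, Ctgf was the member called, Fn1, Tgfb1 and Mmp2 had positive values (0.17, 0.14 and 0.05), and Col3a1 stayed at -0.59 (SE 0.22, edgeR adjusted p = 0.254).

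**Figure D3:**
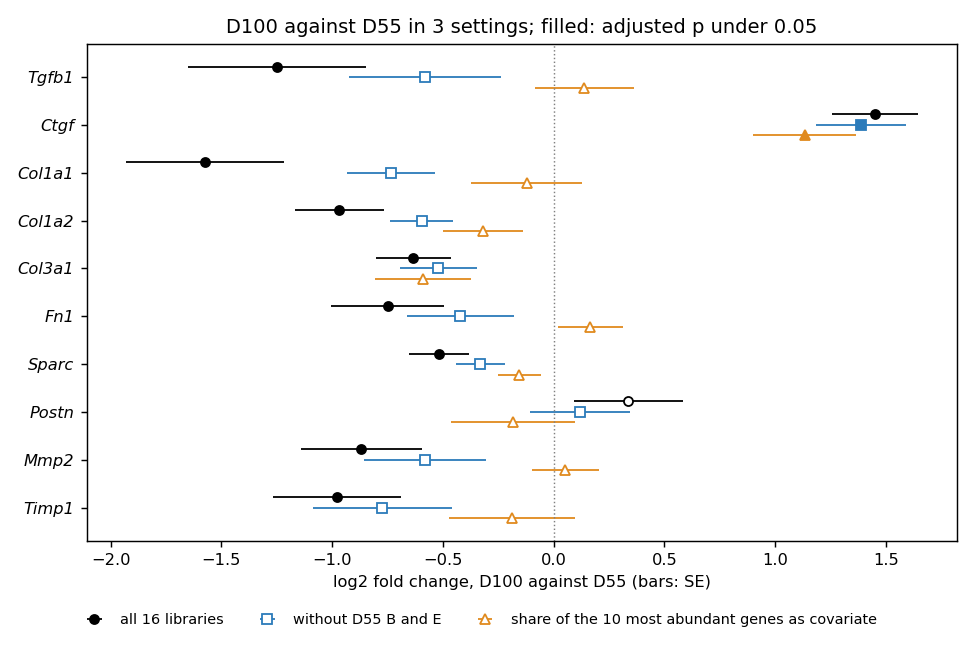
Log2 fold change of D100 against D55 (x axis) with its SE for each gene, from all 16 libraries (black), without D55 B and E (blue) and with the composition covariate (orange); filled symbols have an adjusted p under 0.05. Ctgf is filled in all 3 settings (1.45, 1.39 and 1.13), and the other members are filled with all libraries alone, apart from Postn.

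The members followed library composition to unequal degrees. Over the 16 libraries, log2 CPM of Mmp2 fell as the percent of counts in the 10 most abundant genes rose (Pearson's r = -0.948, Spearman's rho = -0.953, permutation p = 1e-05 for each, the smallest that 100000 permutations can give, adjusted 2e-05 over 10 members). Without D55 B and E, the 2 libraries farthest from the median share, r was -0.972, and within D55 and D100 it was -0.972 and -0.997 (exact permutation p = 0.00556 and 0.00278). Fn1 and Tgfb1 had like values, with r of -0.946 and -0.948 over 16 libraries, rho of -0.926 and -0.912 (adjusted permutation p = 2e-05 for each), and r of -0.924 and -0.888 without B and E. For Sparc, Col1a2 and Timp1 r was -0.935, -0.884 and -0.827, and -0.862, -0.731 and -0.838 without B and E. Within D55, B and E included, their r was -0.971, -0.994 and -0.858 (exact permutation p = 0.00139, 0.00139 and 0.0861). Within D100 their r was -0.634, 0.597 and -0.377 (exact permutation p = 0.168, 0.215 and 0.504), with the sign turned for Col1a2, whose D100 libraries all lay below the other 10. Over all tested genes the median r was -0.05, and 51.3% were negative.

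For Col1a1 the relation was as close over all libraries (r = -0.916, rho = -0.891, adjusted permutation p = 2e-05 for each, and r = -0.820 without B and E). Within D55, B and E included, its r was -0.994 (exact permutation p = 0.00417), but within D100 r was -0.134 (exact permutation p = 0.828). Col3a1 had r = -0.535 and rho = -0.747 over 16 libraries (adjusted permutation p = 0.0312 and 0.00163), which rested in part on B and E (r = -0.301 without them). Its r was -0.780 within D55, B and E included (exact permutation p = 0.0444), and within D100 the sign was positive (r = 0.866, exact permutation p = 0.0361). Postn had r = 0.570 and rho = 0.391 (adjusted permutation p = 0.0235 and 0.136), with r = 0.201 without B and E. For Ctgf, whose D100 libraries stand apart from the other 10, no pooled value is given; r was 0.429 within D55 (exact permutation p = 0.381) and 0.754 within D100 (exact permutation p = 0.0681). Dose group and composition move together in these libraries, and apart from the covariate fit the part of composition in the differences was not tested.

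**Figure D4:**
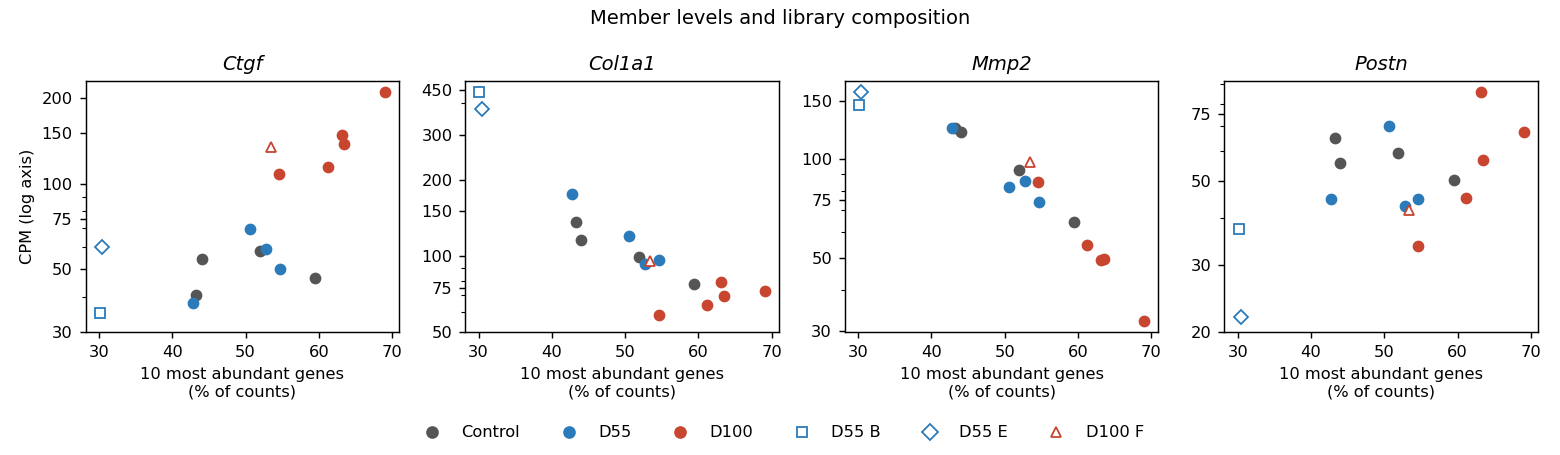
CPM (y axis, log scale) of Ctgf, Col1a1, Mmp2 and Postn against the percent of counts taken by the 10 most abundant genes (x axis) for the 16 libraries, coloured by group, with D55 B, D55 E and D100 F as open symbols. Mmp2 falls along 1 line through all groups (r = -0.948), and the D100 libraries of Ctgf lie above all others, 4 of them at shares above any Control or D55 library.

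Among the members themselves, 45 pairs were compared over the 16 libraries. Of the 36 pairs without Ctgf, 26 had a permutation p of r under 0.05 after adjustment over 45, 24 positive and 2 negative (Postn with Tgfb1 and with Mmp2). The permutations ran over all 16 libraries without regard to dose group. The share of such pairs among all genes was not computed, so the count does not set the members apart. The chains of type I collagen, which assemble into 1 molecule, varied together (Col1a1 and Col1a2: r = 0.951, rho = 0.938, adjusted permutation p = 7.5e-05 for each; r = 0.896 without D55 B and E). Mmp2 and Tgfb1 were as close (r = 0.946, rho = 0.959, adjusted permutation p = 7.5e-05 for each; r = 0.954 without B and E). The negative pairs were weaker without the 2 farthest libraries (Postn and Tgfb1: r = -0.674, rho = -0.574, adjusted permutation p = 0.00659 and 0.0288; r = -0.427 without D55 B and E). The points share their library, its composition and its dose group.

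Ratios of counts within a library do not depend on scaling. The ratio of Ctgf to Col3a1 counts was 0.0589, 0.0374, 0.0479 and 0.0548 in Control, 0.0239 to 0.0672 in D55 and 0.146 to 0.249 in D100. Ctgf to Sparc was 0.0396 to 0.0561 in Control, 0.0239 to 0.0686 in D55 and 0.127 to 0.272 in D100. In both ratios every D100 library lay above every other library, D55 B and E included. This order follows from the levels of these genes given above and is not separate evidence. The share of other gene pairs with such an order was not computed. Ctgf to Postn was 0.628 to 0.982 in Control and 1.73 to 3.21 in D100, and D55 E (2.74) lay among the D100 libraries.

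**Figure D5:**
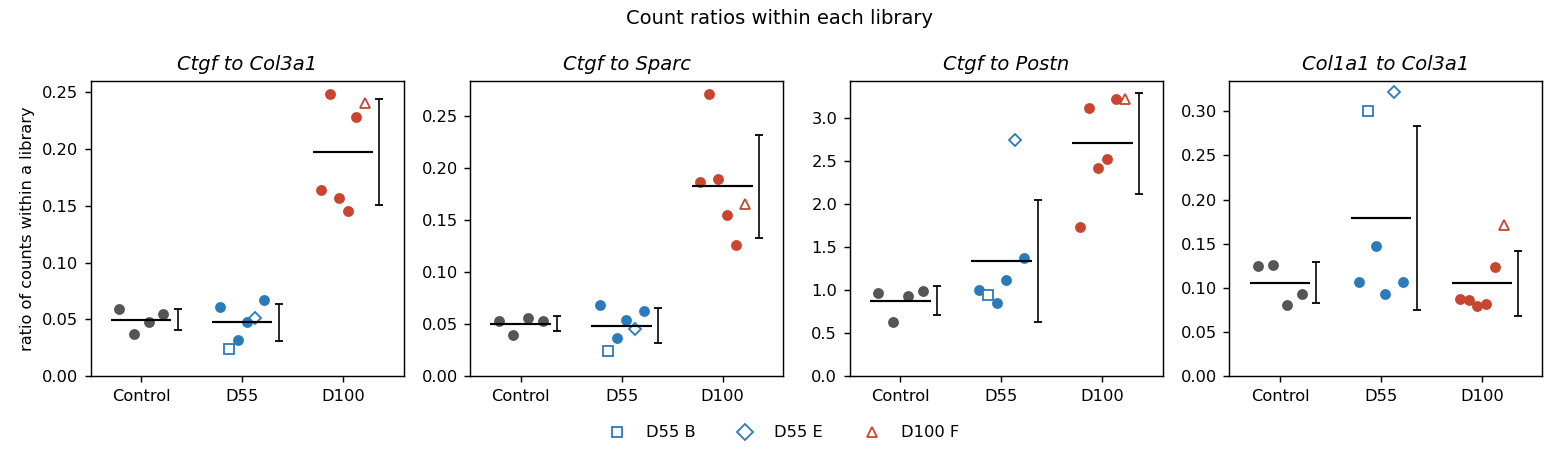
Ratio of estimated counts within each library (y axis, from 0) for Ctgf to Col3a1, Ctgf to Sparc, Ctgf to Postn and Col1a1 to Col3a1, by group; points are libraries, lines means and bars SD, with D55 B, D55 E and D100 F as open symbols. The D100 libraries of the Ctgf to Col3a1 ratio sit at 0.146 to 0.249, above 0.0672, the highest of the other groups, and the highest Col1a1 to Col3a1 ratios are those of D55 B and E.

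Genes outside the set whose levels followed the mean log2 CPM of the 3 collagen genes most closely over the 16 libraries were ENSRNOG00000017087 (r = 0.954, and 0.879 without D55 B and E) and ENSRNOG00000001205 (r = 0.942, and 0.911 without them), from 8645 candidates with a mean of at least 5 CPM. Of these candidates 35 had an r over 0.9. ENSRNOG00000017087 stood at 41.8 and 36.9 CPM in D55 B and E and at 12.8 to 27.0 CPM in the other libraries. Among the members outside the collagens, Sparc had the closest relation to that mean (r = 0.912, and 0.784 without D55 B and E). For Postn r was -0.34, and 0.35 without these libraries.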

How the data were processed

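The authors deposited an estimated count per gene and library, from kallisto 0.43.1. The submitters' processing notes also name build Rnor_6.0. Per the labels' protocols, a stranded mRNA kit was used on 400 ng of RNA. The sources used here do not state annotation release, strand setting or read filters. The labels name no batch. The files give no gene names and 0 of 47357 RefSeq rows (GRCr8) carry an Ensembl identifier. Symbols of the 10 members therefore come from the list that defined the set, and further gene lists and cell type markers, planned by symbol, were not analysed here. Promoter windows are from RefSeq (GRCr8) by symbol, 6 of 10 members.

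Estimated counts were rounded. Genes kept by filterByExpr (14175) were fitted in R 4.3.3 with edgeR 4.0.16 (TMM, glmQLFit, glmQLFTest, 1 coefficient per group, 16 libraries), with Benjamini-Hochberg adjustment over all genes tested and a threshold of 0.05. Log2 CPM used a prior count of 2. Each library is a separate rat. Totals of 4.685 to 48.4 M counts make 3 counts worth 0.062 to 0.64 CPM, which covers counting error only. Exact permutation p-values are 2 times the smaller tail for differences between groups. Alternatives were DESeq2 1.42.0 scaling or test, no scaling, no filter, limma-voom with sample quality weights (limma 3.58.1), fits of the compared groups, a composition covariate, a replicate block and left-out libraries. The fit was tested on simulated data. The rule for named genes took all members, and the genes most like the collagens by Pearson's r. Members, lists and rules were chosen with earlier results of these data known. An estimate was taken as whole within 0.01 of a whole number, judged under 10000.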

Additional observations from a re-analysis of the deposited data

Results flagged for a closer look

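The total count of D100 replicate F, 4.685 M, lay far below the other 5 D100 libraries (20.3 to 25.6 M), with a gap of 0.748 of the range of the group. It was the 1 value flagged by the gap of a single value, among 36 groups of values looked at (10 genes and 2 library measures in 3 groups). Such a gap does not flag 2 libraries that lie together, as D55 B and E did in Col1a1, Tgfb1 and composition. Chance gives about 1 in 20 groups, so 1 in 36 is no more than chance gives. In this library Tgfb1 rested on 42 counts and Timp1 on 12, and the call of Ctgf against Control held without it.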

How the results depend on the processing

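Members called in D100 against Control numbered 1 in the analysis reported, 3 without scaling factors, 2 with the DESeq2 test, 8 with limma-voom with sample quality weights (which changes the test and the weight of each library together), 2 with only the groups compared, 3 without D55 B and E, 7 without D55 B and E and D100 F, and 1 to 2 when each replicate was left out in turn (2 without Control 3, which adds Timp1). Ctgf was called higher in each of these fits, and every other member called was lower. The lower member was Timp1 with the DESeq2 test and Col1a2 with only the groups compared. Without D55 B and E and D100 F the lower members were Col1a1, Col1a2, Tgfb1, Timp1, Mmp2 and Sparc, and weighted limma-voom added Fn1 to these. In D100 against D55 the members called numbered 9, but 1 without D55 B and E, 2 without these and D100 F, 1 with the composition covariate, and 4 to 9 with each replicate left out (4 without D55 B). Over all genes, D100 against Control gave 621 calls, 1438 with the DESeq2 test, 9594 with weighted limma-voom, 1172 without scaling, 841 from only the groups compared, 2731 of 13794 without D55 B and E and D100 F, 409 without a filter, 1407 with the covariate and 1493 without D55 B and E. D55 against Control gave 9, 88 and 522 by edgeR, DESeq2 and weighted limma-voom, and 53 with the covariate. D100 against D55 gave 5041, but 3018 from only the groups compared, 1172 without D55 B and 1403 without D55 E. The cause of these differences was not tested.

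The labels do not say whether the letters shared by D55 and D100 pair the samples. Correlations of same-letter deviations ran from -0.501 to 0.628, and 1 of 6 letters was its own best match. With 6 letters these values cannot settle whether the samples are paired. With a replicate block 0 members and 0 of 13295 genes were called in D100 against D55, with 9 members and 5916 genes at an unadjusted p under 0.05 in edgeR. The edgeR adjusted p-values of these 9 members were 0.0530 to 0.0802. The median log2 fold change of the members was -0.80, in place of -0.81.

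Among the values of members under alternatives, 677 kept direction and side of the threshold, 20 newly passed it, 54 no longer passed it and 39 reversed. The reversed log2 fold changes follow. In D100 against Control the covariate gave Col1a1 0.25, Fn1 0.033 and Tgfb1 0.20, and Postn was 0.016 with weighted limma-voom, 0.0002 without D55 B and E and D100 F, and -0.23 to 0.047 with each replicate left out. In D55 against Control weighted limma-voom gave Col1a1 -0.051, Col1a2 -0.14, Fn1 -0.36, Tgfb1 -0.16, Mmp2 -0.39 and Sparc -0.058. Without D55 B and E, Col1a2 was -0.0149, Fn1 -0.16, Mmp2 -0.14 and Sparc -0.0168, and without D100 F as well, -0.015, -0.16, -0.14 and -0.0168. The covariate gave Fn1 -0.13 and Mmp2 -0.19, and Timp1 was 0.15 without scaling. With each replicate left out, Fn1 ran from -0.0195 to 0.43, Ctgf from -0.043 to 0.15, Timp1 from -0.25 to 0.12 and Mmp2 from -0.0076 to 0.27. In D100 against D55 the covariate gave Fn1 0.17, Tgfb1 0.14, Mmp2 0.052 and Postn -0.18, and Postn was -0.30 without scaling.

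The percent of counts in the 10 most abundant genes differed by 0.54 points between D55 and Control without D55 B and E, in place of -6.11, and by 10.6 points between D100 and D55, where the call was lost (exact permutation p = 0.0286, 0.0571 adjusted). With each replicate left out, D100 minus Control ran from 9.01 to 14.4 points. Differences of the total count then ran from -17.1 to -9.72 M (D100 minus Control), from -2.95 to 4.44 M (D55 minus Control) and from -17.3 to -11.1 M (D100 minus D55). With any 1 Control library left out, the depth difference of D100 against Control had an exact permutation p of 0.0238 (0.0584 adjusted). That p is the smallest the remaining libraries can give. The loss of the call was thus set by the number of libraries and says nothing about how firm the difference is. Depth limits Timp1 and Tgfb1 most, with 12 and 23 counts in their lowest libraries.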
